A study of Mus musculus with 2 samples.

Results

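Ifng, Il2, Il21, Fasl, Xcl1 and Xcr1 are 6 genes of lymphocyte effector function, taken by symbol from the 32285 genes of the expression matrices, and all 6 were found in both libraries. The cells were live, CD45-positive immune cells of orthotopic liver tumours, grown from the mouse hepatoma cell line Hepa1-6 in WT C57/BL6 mice. The mice received either an antibody against the inhibitory receptor PD-1 (anti-PD-1) or an isotype control IgG (isotype). CD45 beads and then a flow cytometry sort selected the cells before sequencing. Each group is 1 droplet library, so there is no replicate and no test between the antibodies, and all intervals cover counting error only. The ages of the mice, the antibody doses and times, and the number of mice behind each library are not stated in these sources.

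Interferon gamma, encoded by Ifng, is secreted by activated T and NK cells and acts on macrophages and other cells through a receptor of the chains Ifngr1 and Ifngr2. Interleukin 2 (Il2) is a growth factor that activated T cells release and that regulatory T cells take up through Il2ra. Interleukin 21 (Il21) is a helper CD4 T cell cytokine that acts on B cells and CD8 T cells. Fas ligand (Fasl) is a membrane protein by which cytotoxic lymphocytes trigger death of cells that carry Fas. The chemokine Xcl1 is made by NK cells and activated CD8 T cells, and its receptor Xcr1 marks the cross-presenting conventional dendritic cells named cDC1.

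In GENCODE vM21 (mm10), Ifng lies on chromosome 10 from 118441046 to 118445892 on the plus strand. The other 5 lie on minus strands. Il2 (chromosome 3, 37120523 to 37125959) and Il21 (37222759 to 37232636) are neighbours with 96799 bases between them. Fasl (161780689 to 161788495) and Xcl1 (164931644 to 164935527) are both on chromosome 1. Xcr1 spans 123852315 to 123862029 on chromosome 9. Antisense genes overlap Xcl1 (Gm20743, 5 UMIs in both libraries together), Il2 (Adad1, 0 UMIs) and Il21 (Gm12534, 16 UMIs), where UMIs are the unique molecular identifiers that count captured RNA molecules.

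The proximal promoters of Ifng, Xcl1 and Il21 are shown because these ligands divided differently among the lymphocytes, with Il21 mainly in CD4 T cells, Xcl1 led by cells with NK receptors, and Ifng in both. Each sequence is the 245 bases from 250 to 6 bases before the RefSeq gene start, on the gene's strand (RefSeq, GRCm38.p6). Capitals mark matches, on either strand, of an NFAT core (GGAAA), an AP-1 site (TGANTCA), a T-box site (GGTGTGA) or a Runx site (TGTGGT).
Ifng, chr10:118440796-118441040, plus strand: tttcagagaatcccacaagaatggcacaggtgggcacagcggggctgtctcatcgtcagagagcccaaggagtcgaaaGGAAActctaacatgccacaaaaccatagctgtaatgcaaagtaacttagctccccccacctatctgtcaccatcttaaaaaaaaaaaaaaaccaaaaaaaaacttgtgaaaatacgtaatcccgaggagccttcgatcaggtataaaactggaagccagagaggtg
Xcl1, chr1:164935528-164935772, minus strand: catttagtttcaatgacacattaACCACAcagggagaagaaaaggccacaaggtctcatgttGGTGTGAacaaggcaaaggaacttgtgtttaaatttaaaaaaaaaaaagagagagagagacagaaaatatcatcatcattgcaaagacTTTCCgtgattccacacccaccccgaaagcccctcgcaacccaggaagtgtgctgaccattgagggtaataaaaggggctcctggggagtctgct
Il21, chr3:37232642-37232886, minus strand: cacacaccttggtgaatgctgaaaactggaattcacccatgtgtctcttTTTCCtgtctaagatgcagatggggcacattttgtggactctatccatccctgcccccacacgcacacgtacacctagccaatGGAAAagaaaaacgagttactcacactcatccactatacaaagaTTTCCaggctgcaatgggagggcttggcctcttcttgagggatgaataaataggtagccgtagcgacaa
The NFAT core matched 1 time in Ifng, 1 time in Xcl1 and 3 times in Il21, and 54.8% of 32851 promoter windows of the same length hold at least 1 such match. Xcl1 alone among the 6 windows held a T-box match, found in 3.27% of all windows, and a Runx match, found in 13.9%. No AP-1 match lay in any of the 6 windows, against 6.66% of all windows. These matches are of letters only and were not measured as binding sites.

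Depth was similar, at 72148493 UMIs in 10149 barcodes under anti-PD-1 and 67520433 UMIs in 9683 barcodes under isotype. Filters kept 9711 and 9278 cells with medians of 6303 and 6124 UMIs, and 127 of the kept barcodes occurred in both libraries. Values below are in this order, anti-PD-1 first. Cells were gated by marker genes that include none of the 6 genes. T and NK cells made up 637 cells (6.56%) and 566 cells (6.10%). The gate for CD8 T cells held 186 and 70 cells, or 29.2% and 12.4% of T and NK cells, and CD4 T cells 175 and 193. Regulatory T cells (Treg, by Foxp3) numbered 70 and 57, gamma-delta T cells 36 and 45, T cells with NK receptor genes 19 and 19, other T cells 90 and 107, and NK cells 61 and 75. The gate for cDC1 held 130 and 97 cells. Genes the gates did not use were seen more often in the gated cells, though not all of them separated the gates sharply. Lck was in 89.1% and 81.7% of gated T cells against 1.22% and 1.21% of all other cells. Naaa was in 96.9% and 99.0% of cDC1, but also in 36.0% and 34.0% of all other cells. Gzmk was in 69.9% and 45.7% of CD8 T cells against 18.4% and 6.85% of other T and NK cells. Median depth differed between gates and libraries, at 9814 and 7871 UMIs in CD8 T cells and 8625 and 6518 in CD4 T cells.

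Ifng transcripts came almost entirely from T and NK cells, which held 94.4% of its 2893 UMIs under anti-PD-1 and 95.8% of 2553 under isotype. CD4 T cells were the largest source in both, with 44.7% and 43.5%. CD8 T cells held 25.3% and 10.7%, and NK cells 11.8% and 20.7%. Levels are given as CPM, the UMIs of the gene per 1000000 UMIs of the gate, with 95% Poisson intervals in parentheses. The level of Ifng was 670 CPM (634 to 708) and 721 CPM (679 to 765) in CD4 T cells of the anti-PD-1 and isotype libraries. In NK cells it was 659 (591 to 732) and 888 (814 to 967), and in CD8 T cells 327 (304 to 351) and 364 (322 to 409).

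In the anti-PD-1 library the CPM intervals of CD4 T and NK cells overlapped at the top, while in the isotype library NK cells stood above CD4 T cells. T cells with NK receptors (355 and 262 CPM), gamma-delta T cells (263 and 318) and other T cells (259 and 419) followed, and the intervals of these gates and of CD8 T cells overlapped from each to the next. Treg cells were lowest, at 46.1 and 244 CPM, and in the isotype library their interval overlapped that of T cells with NK receptors. B cells, plasmacytoid, migratory, cDC1 and cDC2 dendritic cells had 0 Ifng UMIs in both libraries. Of B cells, 0 of 56 and 0 of 52 had a UMI, which, at the floor of 3 cells used for every count of 0, allows up to 5.36% and 5.77% of cells with a UMI. Neutrophils with a UMI were 2 of 2264 (0.0883%) and 4 of 2272 (0.176%), against 62.9% and 60.6% of CD4 T cells and 75.4% and 74.7% of NK cells.

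**Figure D1:**
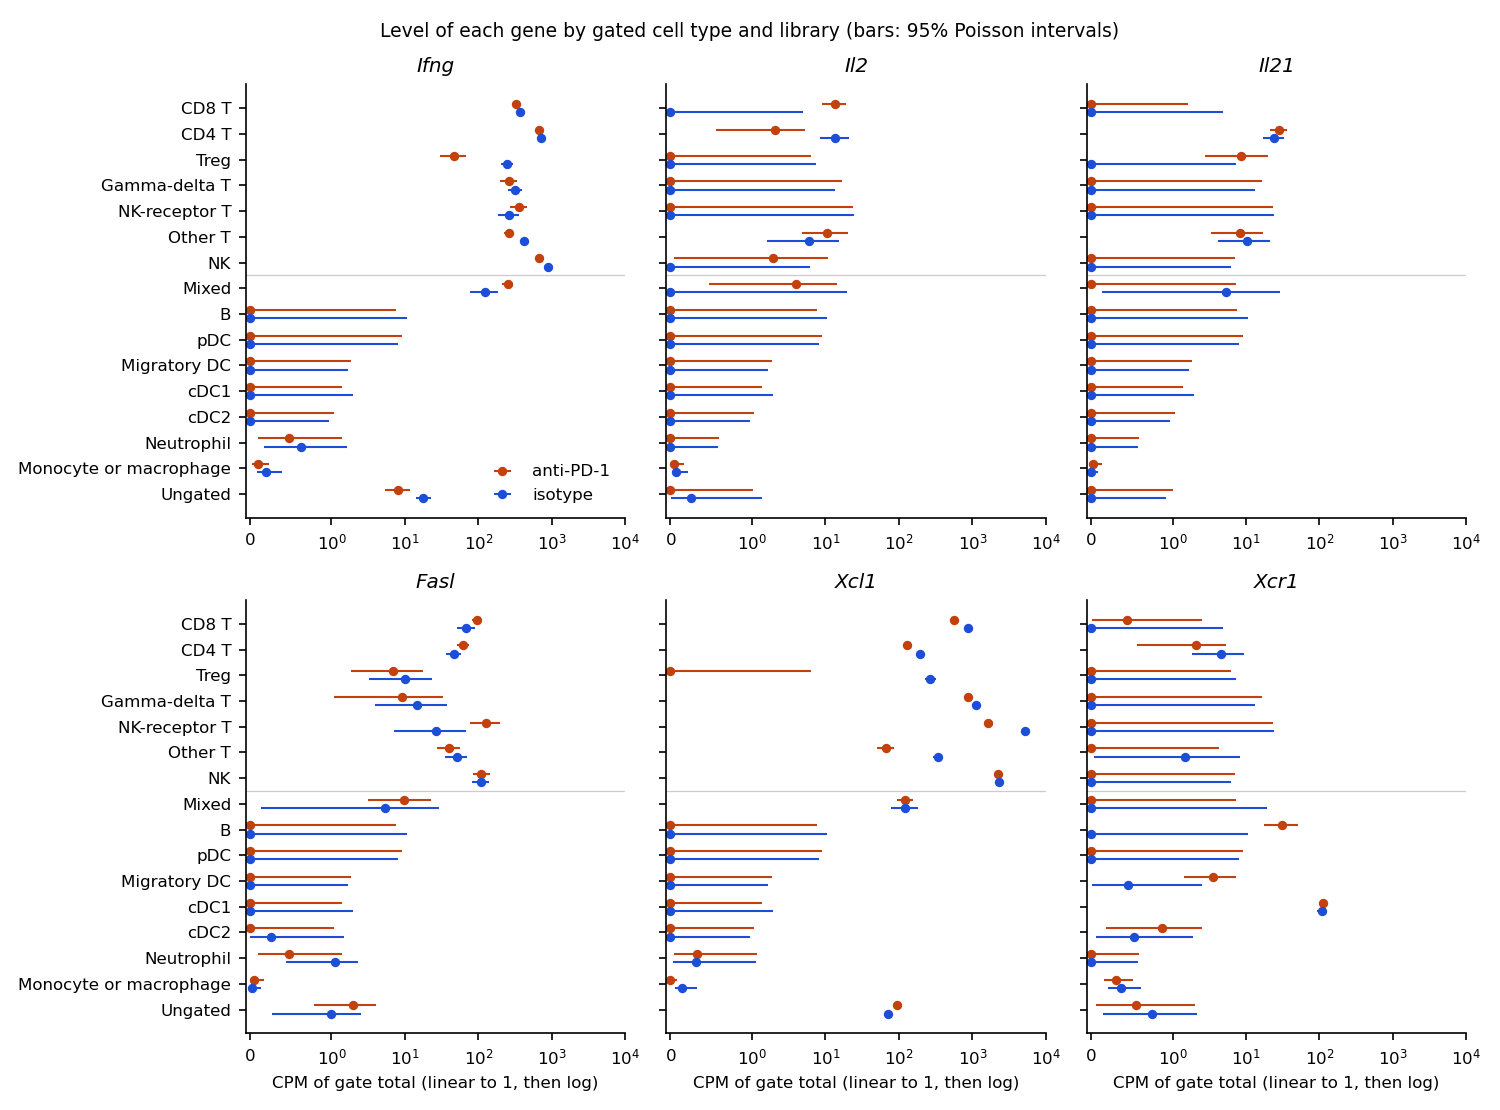
Level of each gene in each gated cell type, as CPM of the gate's UMIs on an axis that is linear to 1 and logarithmic above, for the anti-PD-1 (orange) and isotype (blue) libraries, with 95% Poisson intervals as bars. The 5 ligand genes lie high in the T and NK gates above the grey line, and Xcr1 peaks in cDC1 at 112 and 107 CPM.

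In CD4 T, CD8 T and NK cells a minority of cells held most Ifng transcripts. Among CD4 T cells, the 33 and 34 cells with at least 10 UMIs held 78.9% and 74.1% of the gate's Ifng. The richest CD8 T cell of the anti-PD-1 library had 148 Ifng UMIs, 20.2% of its gate, and the richest of the isotype library 37 UMIs, 13.5%. In gamma-delta T cells only 4 and 4 cells carried Ifng, and 1 cell held 91.4% of it in the former library and 48.9% in the latter.

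Xcl1 was led by cells with NK receptors. The T cells with NK receptor genes had 1611 CPM (1419 to 1822) and 5188 CPM (4833 to 5562), and NK cells had 2246 (2119 to 2379) and 2297 (2177 to 2422). Gamma-delta T cells followed at 879 and 1110 CPM, from only 5 and 6 cells with a UMI. CD8 T cells were next at 563 and 864 CPM, and CD4 T cells were at 130 and 196. Within each library these neighbouring gates had intervals that did not overlap, except other T (337 CPM) and Treg cells (268 CPM) of the isotype library. The order of the leading gates differed between the libraries, NK cells first under anti-PD-1 and T cells with NK receptors first under isotype.

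Cells with at least 1 Xcl1 UMI were 94.7% and 94.7% of T cells with NK receptors and 78.7% and 88.0% of NK cells. They were 25.3% and 38.6% of CD8 T cells, 13.9% and 13.3% of gamma-delta T cells and 10.9% and 14.0% of CD4 T cells. In gamma-delta T cells 1 cell of each library held 38.7% and 44.0% of the gate's Xcl1. In T cells with NK receptors 1 cell held 25.6% and 31.7%. After each cell was thinned to 1000 UMIs, the shares in NK cells were 59.0% and 72.0% and those in CD8 T cells 11.8% and 20.3%. The thinned difference in NK cells was -13.0 percentage points (-28.3 to 2.92) and that in CD8 T cells -8.46 (-20.1 to 1.04), both with intervals that held 0. The 0 Xcl1 UMIs in B cells and the 1 of 2264 and 1 of 2272 neutrophils with a UMI set the background. All 135 Xcl1 UMIs of the Treg gate in the isotype library lay in 1 cell, which had 23898 UMIs, 1 Foxp3 UMI and 0 Cd4 UMIs. In CD8 T cells 1 cell of each library, with 375 and 217 UMIs, held 29.7% and 33.3% of the gate's Xcl1.

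**Figure D2:**
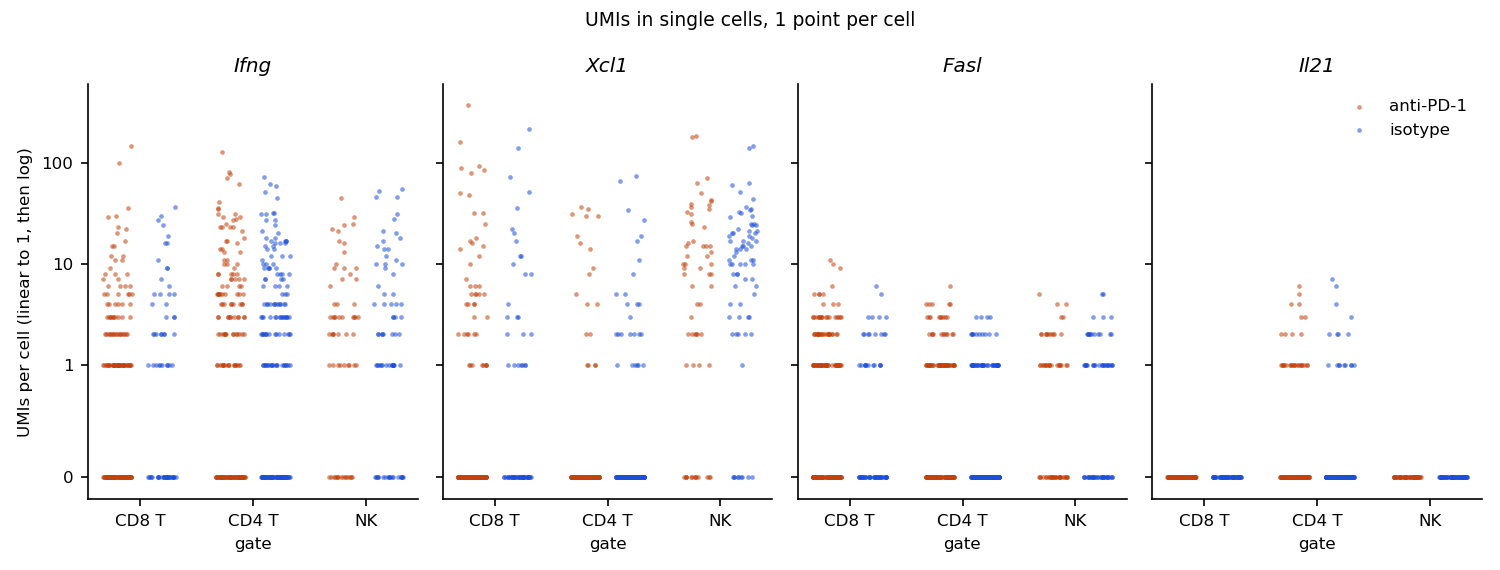
UMIs of Ifng, Xcl1, Fasl and Il21 in single CD8 T, CD4 T and NK cells of the anti-PD-1 (orange) and isotype (blue) libraries, with 1 point per cell on an axis that is linear to 1 and logarithmic above. Ifng reaches 148 and Xcl1 375 UMIs in 1 cell, Fasl stays at 11 or below, and Il21 appears in CD4 T cells only among these gates.

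Xcr1, the receptor of Xcl1, was concentrated in cDC1 in both libraries. The cDC1 gate held 298 of 343 Xcr1 UMIs (86.9%) and 204 of 233 (87.6%). Its level was 112 CPM (99.7 to 126) and 107 CPM (93.1 to 123), a log2 ratio of 0.06 (-0.20 to 0.33), so the libraries overlapped. Cells with a UMI were 53.8% and 61.9% of cDC1, and 10.0% and 9.38% after thinning to 1000 UMIs. Requiring 2 cDC1 genes in place of 3 lowered the level to 62.3 and 54.9 CPM, and requiring 4 raised it to 134 and 130.

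Outside cDC1, cDC2 had 3 and 2 Xcr1 UMIs and migratory dendritic cells 7 and 1. In the B cell gate all 15 Xcr1 UMIs were in 1 cell of the anti-PD-1 library, which also had 5 of the cDC1 genes and 2 UMIs of B cell genes. The neutrophils, 4536 over both libraries, had no Xcr1 UMI.

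**Figure D3:**
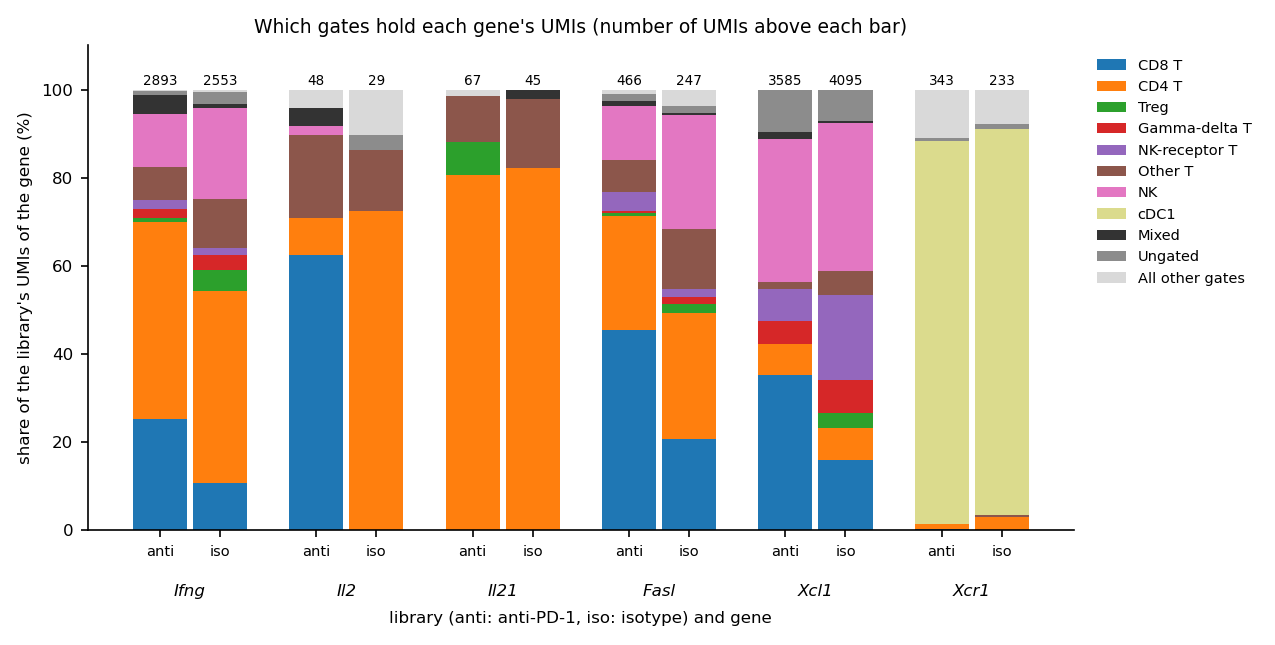
Share of each gene's UMIs (%) found in each gate, 1 bar per gene and library, with the number of UMIs above each bar. T and NK gates fill the bars of Ifng, Il2, Il21, Fasl and Xcl1, and cDC1 fills 86.9% and 87.6% of the Xcr1 bars.

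Fasl was spread over CD8 T, CD4 T and NK cells. Its 466 and 247 UMIs lay to 45.5% and 20.6% in CD8 T cells, to 25.8% and 28.7% in CD4 T cells and to 12.2% and 25.9% in NK cells. The level was 110 CPM (83.2 to 142) and 108 CPM (82.9 to 137) in NK cells, 94.6 (82.3 to 108) and 67.7 (50.4 to 89.0) in CD8 T cells and 62.2 (51.6 to 74.4) and 46.1 (36.0 to 58.2) in CD4 T cells. Treg cells were low, at 6.83 and 9.93 CPM from 4 and 5 UMIs. Cells with a UMI were 54.1% and 52.0% of NK cells, 52.7% and 37.1% of CD8 T cells and 40.6% and 27.5% of CD4 T cells, against 0.133% and 0.308% of neutrophils. After thinning to 1000 UMIs the shares of CD8 T cells were 11.3% and 10.1% and those of CD4 T cells 5.14% and 8.33%. No cell had more than 11 Fasl UMIs, and the richest cell held 5.19% and 11.8% of the Fasl UMIs of CD8 T cells.

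Il21 was found mainly in CD4 T cells, which held 54 of 67 UMIs (80.6%) and 37 of 45 (82.2%). The level in CD4 T cells was 28.0 CPM (21.0 to 36.5) and 24.0 CPM (16.9 to 33.1). No Il21 UMI was found in CD8 T cells or in NK cells of either library, which, at that floor, allows up to 1.61% and 4.29% of CD8 T cells and 4.92% and 4.00% of NK cells with a UMI and sets no limit on cells that express the gene. Of CD4 T cells, 31 of 175 (17.7%) and 17 of 193 (8.81%) had an Il21 UMI, a difference of 8.91 percentage points (1.98 to 16.0). After thinning to 1000 UMIs the shares were 2.29% and 3.13%, from 4 and 6 cells, a difference of -0.84 points (-4.63 to 2.99) that shows no direction. Among the Il21-positive CD4 T cells at full depth, 27 of 31 and 14 of 17 also had an Ifng UMI. Of all CD4 T cells, 62.9% and 60.6% had an Ifng UMI.

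Il2 was rare, with 48 and 29 UMIs in all. Under anti-PD-1, 30 UMIs lay in CD8 T cells, 29 of them in 1 cell, and 4 in CD4 T cells. Under isotype, 21 lay in CD4 T cells, 14 of them in 1 cell, and 0 in CD8 T cells. Every one of the 7 T and NK cells with Il2 under anti-PD-1 also had Ifng, against 0 of the 8 under isotype. Of all T and NK cells, 50.9% and 49.5% had Ifng. The contrast rests on these 7 and 8 cells and was not tested.

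Xcl1 and Ifng were often seen in the same cell. Of NK cells with Ifng, 80.4% and 87.5% also had Xcl1, close to the 73.3% and 89.5% of NK cells without Ifng. In CD4 T cells, 16 of 19 and 22 of 27 cells with Xcl1 had Ifng. Among all CD4 T cells 62.9% and 60.6% had it. In CD8 T cells, 26 of 47 and 14 of 27 cells with Xcl1 had Ifng, where 57.5% and 55.7% of all CD8 T cells had it. Cells with Ifng were deeper, with medians of 8916 and 7388 UMIs against 6194 and 5260 in T and NK cells without it, and the part of depth in these overlaps was not tested.

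The libraries were then compared for the effector transcripts of tumour lymphocytes with and without PD-1 blockade. All ratios are log2 values of the CPM under anti-PD-1 over that under isotype. A gene is counted as higher or lower where it passes 1.5-fold with at least 20 UMIs in the gate. Each of the 6 genes also needed UMIs in both libraries to be counted, which the shares over all genes did not require. Over all T and NK cells together, Xcl1 was lower in the anti-PD-1 library, at 489 against 841 CPM, a log2 ratio of -0.78 (-0.85 to -0.71). Ifng was at 420 against 544 CPM (-0.37, -0.45 to -0.30), Fasl at 69.0 against 51.8 (0.41, 0.18 to 0.65, and 0.046 after thinning), Il21 at 10.1 against 9.79 (0.05, -0.52 to 0.64) and Il2 at 6.76 against 5.56 (0.28, -0.46 to 1.05). So 0 of the 5 genes with enough UMIs were higher and 1 was lower past the fold, where 8.4% of 10652 genes were higher and 4.83% lower.

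In CD8 T cells Il2 had 30 and 0 UMIs and was not counted, for lack of UMIs under isotype. Of the 3 genes counted there, 0 were higher and 1, Xcl1, was lower (-0.62, -0.76 to -0.48), against 15.9% and 6.42% of all genes. Without the 5 cells richest in Xcl1 in each library, which are chosen by their Xcl1 and are a larger share of the 70 isotype cells than of the 186 anti-PD-1 cells, that ratio was -0.0046. After thinning it was -0.94. The share of CD8 T cells with an Xcl1 UMI differed by -13.3 percentage points (-26.3 to -0.83). In CD8 T cells outside the cell cycle Xcl1 stood at 416 CPM (373 to 463) and 464 CPM (397 to 539), and in cycling ones at 646 (605 to 689) and 1256 (1146 to 1373). Ifng in CD8 T cells stood at -0.15 (-0.36 to 0.05) and Fasl at 0.48 (0.04 to 0.95), neither past the fold. Fasl passed it, at 0.83, without the 5 richest cells, the highest of 12 alternative settings that began at 0.22. These 5 cells, chosen by their Fasl, are likewise a larger share of the 70 isotype cells than of the 186 anti-PD-1 cells.

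Within CD4 T cells 0 of 5 genes were higher and 2, Il2 and Xcl1, were lower, against 11.9% and 6.52% of all genes. Il2 had 4 against 21 UMIs (-2.72, -4.72 to -1.15). Xcl1 was at -0.60 (-0.85 to -0.35), and at -0.15 as the mean of each cell's CPM and -0.24 without the 5 richest cells. The direction differed between cycling and other cells. Xcl1 was at 59.0 CPM (43.8 to 77.8) and 449 CPM (391 to 513) in the 46 and 35 cycling CD4 T cells. In the 129 and 158 others it was at 185 (160 to 212) and 80.5 (64.3 to 99.5). Cells with an Xcl1 UMI were 10.9% and 25.7% of the cycling cells and 10.9% and 11.4% of the others. Only 19 and 27 CD4 T cells had Xcl1, and 1 cell of each library held 14.8% and 24.8% of it. The part of cycling in this contrast was not tested. Ifng (-0.11, -0.22 to 0.01), Il21 (0.22, -0.41 to 0.86) and Fasl (0.43, -0.0041 to 0.88) had intervals that held 0. After thinning, Il21 stood at -0.67 and Fasl at -0.63, below 0 where the full-depth values were above it, and Il21 was at -0.18 as the mean of each cell's CPM.

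In NK cells 0 of 3 genes were higher and 0 were lower, against 13.6% and 7.55% of all genes. Xcl1 in NK cells was at -0.03 (-0.15 to 0.08), Fasl at 0.03 (-0.51 to 0.57) and Ifng at -0.43 (-0.63 to -0.23). After thinning, Fasl in NK cells was at 0.88 and Ifng at -0.60, both beyond 1.5-fold. The thinned Fasl lay in only 8 of 61 and 6 of 75 cells, so its ratio rests on few cells. These shares differed by 5.11 percentage points (-5.38 to 16.6). The thinned Ifng lay in 22 and 27 cells. Among Treg cells the 1 gene counted, Ifng, was lower (27 against 123 UMIs, -2.41, -3.06 to -1.80), against 14.1% of all genes higher and 10.4% lower. Xcl1 had 0 against 135 UMIs there and was not counted. The cell with all of the Treg gate's Xcl1 also had 68 of the 123 Ifng UMIs, and without it the Ifng ratio was -1.31 (-2.04 to -0.63). Treg cells with an Ifng UMI were 17.1% and 28.1%, a difference of -10.9 points (-25.5 to 3.55). After thinning they were 5.71% and 5.26%, a difference of 0.45 points (-9.29 to 9.24). Both of these intervals held 0. In cDC1, Xcr1 was neither higher nor lower, against 12.3% and 3.65% of all genes.

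Gates with fewer cells gave wider or less stable values. T cells with NK receptors had an Xcl1 ratio of -1.69 (-1.90 to -1.48) and -1.07 without the 5 richest cells, and Fasl there rested on 20 against 4 UMIs (2.27, 0.70 to 4.28). Other T cells were at -2.36 (-2.81 to -1.93) for Xcl1, -1.32 without the 5 richest cells and -0.92 when 1 T cell gene was enough for the gate. Their Ifng ratio was -0.69 (-0.95 to -0.43). In gamma-delta T cells Xcl1 was at -0.34 (-0.60 to -0.07) and Ifng at -0.28 (-0.78 to 0.22), and the latter at -2.79 without the richest cell of each library. With 1 T cell gene as the minimum, Xcl1 in T cells with NK receptors was at -0.67.

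The make-up of the lymphocytes differed between the libraries, so the pooled ratios were also computed with the same make-up in both, each gate weighted by the mean of its shares of T and NK UMIs in the 2 libraries. The ratio of Xcl1 was then -0.63 in place of -0.78, that of Ifng -0.28 in place of -0.37 and that of Fasl 0.32 in place of 0.41. Summed over all cells of a library, Fasl stood at 0.82 (0.60 to 1.05), Xcl1 at -0.28 (-0.35 to -0.22) and Ifng at 0.09 (0.01 to 0.17). Cycling cells were 26.7% and 17.5% of T and NK cells. Ifng in cycling against other T and NK cells was at 345 against 485 CPM under anti-PD-1 and at 514 against 559 under isotype, and the part of cycling in the ratios was not tested.

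**Figure D4:**
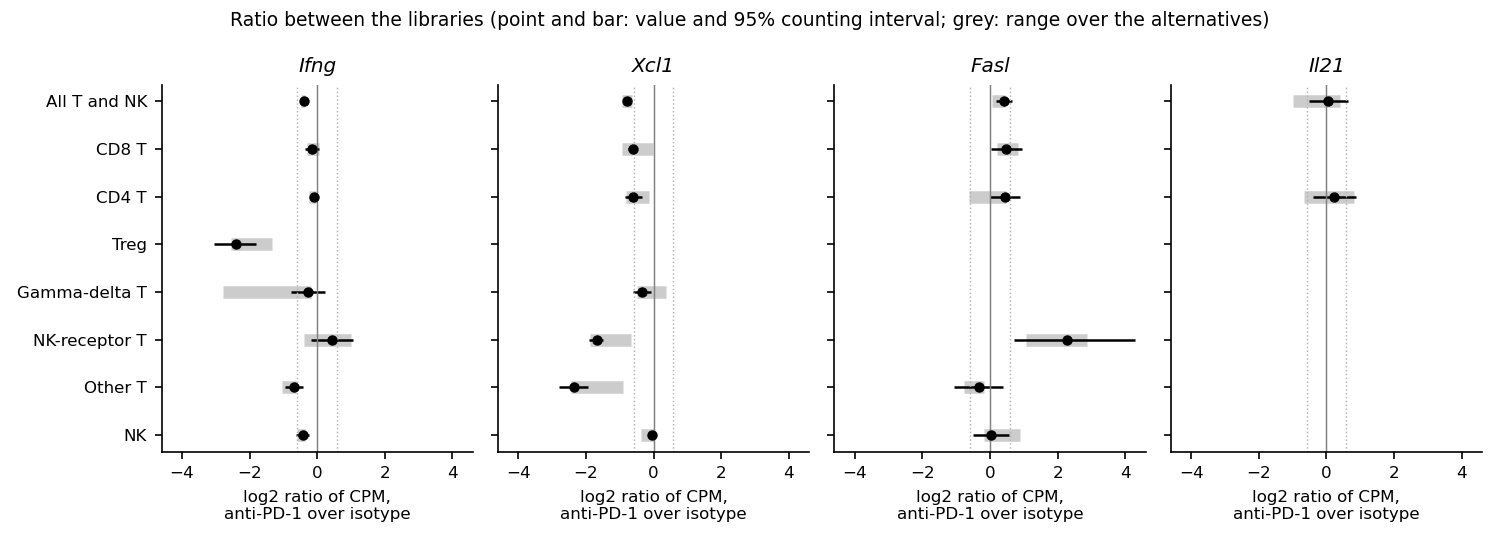
Ratio of CPM on a log2 axis, as anti-PD-1 over isotype, of Ifng, Xcl1, Fasl and Il21 in T and NK gates, with 95% counting intervals as black bars, the range over the alternative settings in grey and 1.5-fold as dotted lines. Xcl1 is at -0.78 over all T and NK cells and at -0.03 in NK cells, and the grey range of Xcl1 in CD8 T cells reaches -0.0046.

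A list of 32 genes of the same pathways was followed, with 7 receptors, 14 inducers and regulators and 11 other effector ligands. Over all T and NK cells 12 were higher and 20 lower at any fold, with a median of -0.11, where 61.6% of all genes were higher and their median was 0.09. Past 1.5-fold 1 was higher and 4 lower, against 8.4% and 4.83% of all genes. In CD8 T cells 5 of 28 measured genes were higher and 4 lower past the fold, against 15.9% and 6.42% of all genes, with a median of 0.13 (all genes 0.12). In CD4 T cells 3 of 32 were higher and 7 lower, against 11.9% and 6.52%, with a median of -0.13 (all genes 0.08). In NK cells 1 of 24 was higher and 3 lower, against 13.6% and 7.55%, with a median of 0.07 (all genes 0.05).

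Among the receptors, Ifngr1 was at 552 and 596 CPM in CD4 T cells and 667 and 556 in CD8 T cells. Ifngr2, the second chain that signalling needs, was at 4.66 and 8.44 CPM in CD4 T cells, against 115 and 98.6 in monocytes and macrophages. Within CD4 T cells the Ifng-positive cells had 1 and 2 Ifngr2 UMIs and the Ifng-negative cells 8 and 11. Il2ra was at 232 and 389 CPM in Treg cells and 258 and 260 in gamma-delta T cells, against 61.1 and 49.1 in CD8 T cells. Fas was at 106 and 104 CPM in neutrophils, and at 34.8 and 57.1 in CD8 T cells (-0.71, -1.27 to -0.14).

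Among the regulators, Eomes, a T-box factor of cytotoxic lymphocytes, was higher in CD4 T cells of the anti-PD-1 library (75.1 against 21.4 CPM, 1.81, 1.26 to 2.40) and lower in CD8 T cells (63.8 against 98.2, -0.62, -1.04 to -0.20). Tbx21, encoding the T-box factor T-bet that drives Ifng, was higher in CD8 T cells (105 against 61.1 CPM, 0.78, 0.32 to 1.27). In CD4 T cells it was at 0.10 (-0.24 to 0.45). Eomes in CD4 T cells with and without Ifng was at 103 and 12.0 CPM under anti-PD-1 (138 and 7 UMIs) and at 25.1 and 14.0 CPM under isotype (26 and 7 UMIs).

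Among the other ligands, the chemokine gene Ccl3 was higher in CD8 T cells (573 against 170 CPM, 1.75, 1.49 to 2.03), CD4 T cells (843 against 190, 2.15, 1.97 to 2.34) and NK cells (591 against 353, 0.74, 0.49 to 1.00). Lta and Tnf, which encode lymphotoxin alpha and tumour necrosis factor, were lower in CD4 T cells (-1.69, -2.07 to -1.32, and -0.78, -1.01 to -0.54). Il10, an inhibitory cytokine gene, was higher there (45 against 13 UMIs, 1.47, 0.55 to 2.48). Csf2 in CD8 T cells had 85 UMIs against 1 (4.84, 2.32 to 10.2). Il17a, which marks another helper programme, was at 6.69 and 8.67 CPM in CD4 T cells with Ifng and at 257 and 540 CPM in those without.

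**Figure D5:**
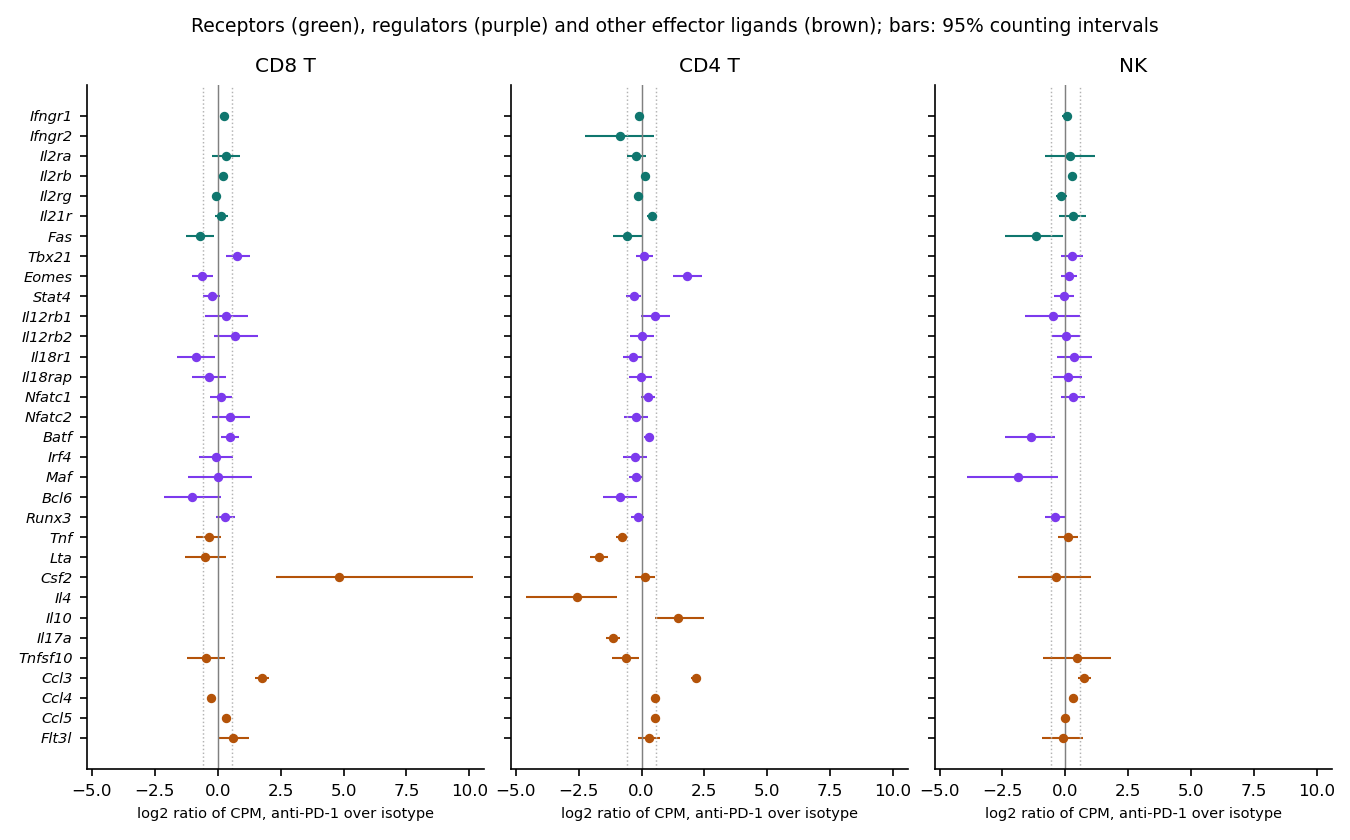
Ratio of CPM on a log2 axis, as anti-PD-1 over isotype, of receptors (green), regulators (purple) and other effector ligands (brown) in CD8 T, CD4 T and NK cells, for genes with at least 20 UMIs in the gate, with 95% counting intervals as bars and 1.5-fold as dotted lines. Ccl3 lies at 1.75, 2.15 and 0.74 in the 3 gates, and Lta at -1.69 in CD4 T cells.

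Genes with the most similar pattern were ranked by Pearson's r of log2(CPM + 10) over 26 points, 13 gates in each of the 2 libraries. These points share libraries and cell types, so r is a description without a test. Gates needed at least 20 cells in each library, so T cells with NK receptors (19 and 19 cells), a leading Xcl1 gate, were left out. Nearest to Ifng were Ctla2a (0.98), Cd96 (0.98) and Ms4a4b (0.98), and nearest to Xcl1 were Klrc1 (0.96), an NK receptor gene, Cd160 (0.95) and Txk (0.94), with Ifng among the first 5 (0.93). Fasl was nearest to Ms4a4b (0.95), Fhl2 (0.95) and Nrgn (0.94), with Eomes among the first 5 (0.94). Il21 was nearest to Il13 (0.94), Igfbp7 (0.92) and Dclk1 (0.92), with Cd40lg, the CD40 ligand gene of helper T cells, among the first 5 (0.92). Xcr1 was nearest to Fam149a (0.98), Clec1b (0.97) and Tlr11 (0.97). Il2 reached 0.79 at most, with Exph5. For both Il2 and Il21 most of the points were 0, and Il21 was highest in CD4 T cells, at 28.0 and 24.0 CPM.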

How the data were processed

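Both deposited matrices hold unnormalized UMI counts. The authors made them with Cell Ranger, version 5.0.1 per the file headers and 2.1.1 per the submitters' processing notes, on mm10 per the same notes. Libraries were 10x Genomics 3′ v2 per the labels' protocols. Cells with at least 500 UMIs, 200 genes and at most 10% mitochondrial UMIs were kept. Scrublet (scanpy 1.11.5, expected rate 0.06) was run per library. Its automatic threshold marked 1 barcode in each, so scores above 0.25, a value chosen with the scores known, were removed, 303 (3.03%) and 288 (3.01%) barcodes. Gates needed 2 or more T (Cd3d, Cd3e, Cd3g, Trac), NK or B cell genes and 3 or more cDC1 genes. T or NK cells with 3 or more macrophage genes (33 and 11) were set apart as mixed. UMIs were summed per gate and library and scaled to CPM. Intervals are exact at 95% (Poisson for CPM, conditional binomial for ratios, Clopper-Pearson for shares above 0) or Newcombe for differences of shares. A count of 0, UMIs or cells, was set to a floor of 3 over the gate. The shares over all genes past the fold used a lower value in place of 0 UMIs. Ratio intervals were tested on simulated counts drawn independently. Those counts lacked the concentration of UMIs in single cells seen here, so the test does not cover that spread. Named genes are the 6 genes, the pathway list and the 5 genes of highest r per gene, among genes with at least 50 UMIs, without receptor segments and unnamed models. The genes, lists and markers were chosen with earlier results of these data known. Alternatives were mitochondrial limits of 5% and 20%, no doublet removal, other gate minima, thinning, leaving out the richest cells, and edgeR 4.0.16 and DESeq2 1.42.0 scaling.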

Additional observations from a re-analysis of the deposited data

Results flagged for a closer look

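Il2 differed in opposite directions in CD8 and CD4 T cells, a contrast that was not tested. In CD8 T cells it had 30 UMIs under anti-PD-1 and 0 under isotype. With the floor of 3 counts over the gate in place of 0, that was 3.36-fold higher, a log2 ratio of 1.75. The lower limit of the counting interval was 1.36. In CD4 T cells it had 4 against 21 UMIs, a log2 ratio of -2.72 (-4.72 to -1.15). Single cells held 29 of the 30 and 14 of the 21 UMIs.

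Ifng was also present in barcodes that no comparison used, those with both lymphocyte and macrophage genes. It stood at 249 CPM in 33 barcodes of the anti-PD-1 library and 121 CPM in 11 of the isotype library, a log2 ratio of 1.04 (0.39 to 1.75).

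Xcl1 was present in cells that met no gate, with 339 and 284 UMIs, or 94.5 and 70.4 CPM, a log2 ratio of 0.42 (0.19 to 0.66).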

How the results depend on the processing

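Over all T and NK cells, Xcl1 stayed lower in the anti-PD-1 library at the 12 alternative settings, with log2 ratios from -0.93 to -0.65. The value was -0.86 without the richest cell of each library, -0.93 without the 5 richest (added after the data were seen), -0.86 with TMM scaling, -0.85 with median-of-ratios scaling and -0.65 as the mean of each cell's CPM. Ifng lay between -0.49, without the 5 richest cells, and -0.36. Fasl lay between 0.046 and 0.45, with 0.046 after thinning to 1000 UMIs. Il21 kept its direction at 6 of 12 settings and reached -0.99 after thinning. Fasl in CD4 T cells was at -0.63 after thinning and above 0 at the other 11. The cause was not tested. Other scalings moved ratios by over 0.1 in cDC1 (-0.11 with TMM, -0.10 with median of ratios), NK (-0.11) and gamma-delta T cells (-0.10).

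Counts of genes higher and lower past 1.5-fold, at 2-fold and with no minimum of UMIs were, in this order, 895 and 515, 281 and 158, 2020 and 2136 in all T and NK cells. In CD8 T cells they were 1305 and 528, 478 and 139, 2437 and 1967. In CD4 T cells they were 1040 and 570, 302 and 164, 3164 and 2232. In Treg cells they were 830 and 610, 305 and 183, 3453 and 2566. In NK cells they were 761 and 422, 260 and 120, 3151 and 2350, and in cDC1 1076 and 319, 284 and 94, 2213 and 1609.

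Direction was kept at 11 of 14 settings for Xcr1 in cDC1, 11 of 12 for Ifng in CD8 T and Xcl1 in NK cells, 10 of 12 for Il21 in CD4 T cells, 9 of 11 for Xcl1 in gamma-delta T cells and 6 of 12 for Fasl in NK cells. With 1 T cell gene as the minimum, the NK share of Xcl1 UMIs was 23.0% and 21.6% in place of 32.5% and 33.4%. No paired analysis was possible because each group is 1 library.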

Other observations

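The ungated Xcl1 came from few cells. The 16 ungated cells with at least 3 UMIs of Xcl1 or Ifng, 10 under anti-PD-1 and 6 under isotype, held 616 Xcl1 UMIs, and 13 of them had exactly 1 NK gene. Nkg7, a cytotoxic granule gene, was seen in 15 of the 16 against 0.741% of the other ungated cells, Rora in 12 against 4.05%, Kit in 9 against 4.40% and Gata3 in 9 against 0.392%. These genes were chosen after the values were seen.

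Xcr1 UMIs occurred in a few T cells, mainly of the CD4 T gate. Over both libraries 9 of 368 CD4 T cells (2.45%, 1.12 to 4.59) had one, at a median depth of 7200 UMIs. Monocytes and macrophages with one were 28 of 9524 (0.294%, 0.195 to 0.425), at a median of 8339 UMIs. In CD8 T cells it was 1 of 256 (0.391%, 0.00989 to 2.16), and in cDC2 5 of 530 (0.943%, 0.307 to 2.19). The 11 T or NK cells with an Xcr1 UMI had 0 UMIs of the cDC1 marker genes and at most 3 Xcr1 UMIs each.

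Cells with Il21 in the CD4 T gate had more Ccl3 than those without, at 2363 against 377 CPM under anti-PD-1 and 997 against 103 CPM under isotype. For Batf, a factor of T cell activation, the values were 380 against 243 CPM and 321 against 212 CPM. This was not particular to Il21. In CD4 T cells with and without Ifng, Ccl3 was at 1161 against 110 CPM and at 270 against 23.9 CPM. Batf there was at 308 against 200 CPM and at 239 against 187 CPM. Of the cells with Il21, 27 of 31 and 14 of 17 also had Ifng, against 62.9% and 60.6% of all CD4 T cells.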
